A study of Rattus norvegicus with 24 samples.

Results

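Glucocorticoid receptors and stress target genes were followed as 6 genes of the deposited rat count tables. These were the corticosteroid receptors Nr3c1 and Nr3c2 and 4 genes grouped with them as stress targets, Sgk1, Fkbp5, Per1 and Cdkn1a. The genes were chosen by Ensembl ID and expected chromosome, and all 6 of the 32552 listed genes were found on the expected chromosome in all 24 libraries. RNA was sequenced from tissue punches of the nucleus accumbens (NAc), a forebrain target of dopamine axons, and the ventral tegmental area (VTA), the midbrain source of those axons, in Sprague Dawley rats given fentanyl, an opioid agonist, or saline. Per the series title, the study concerned opioid withdrawal, the choice between fentanyl and food, and sex. Tissue was taken at the time at which a last choice session would have been held, in the early afternoon, in all groups, and the labels used here give no age, dose or withdrawal time. The NAc groups held 4 fentanyl females, 3 saline females, 4 fentanyl males and 3 saline males. The VTA groups held 3 fentanyl females, 2 saline females, 3 fentanyl males and 2 saline males, and 10 of the 14 rats gave both regions. Replicate numbers below are the numbers in the animal codes, so that a number within a sex and treatment is the same rat in both regions.

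Corticosterone, the main glucocorticoid of the rat, enters the brain and binds the mineralocorticoid receptor with high affinity and the glucocorticoid receptor with lower affinity, so that the glucocorticoid receptor is filled mainly at the daily peak and under stress. The bound receptors move to the nucleus and act on response elements in DNA, raising transcription of genes such as Fkbp5, Sgk1 and Per1, and FKBP5 protein in turn lowers the hormone affinity of the glucocorticoid receptor. Several of the targets also answer to other inputs: Cdkn1a to p53, Per1 to the circadian clock and neuronal activity, and Sgk1 to other stress signals.

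The receptors are encoded by Nr3c1 (ENSRNOG00000014096, the glucocorticoid receptor, chromosome 18, 31728373 to 31749647, minus strand) and Nr3c2 (ENSRNOG00000034007, the mineralocorticoid receptor, chromosome 19, 34448289 to 34752695, minus strand). Sgk1 (ENSRNOG00000011815, a serum- and glucocorticoid-induced kinase that acts on ion channels and transporters, chromosome 1, 24185435 to 24302298, minus strand) and Fkbp5 (ENSRNOG00000022523, a co-chaperone of the receptor complex, chromosome 20, 7976713 to 8019020, minus strand) are its targets, as is Per1 (ENSRNOG00000007387, a repressor of the circadian clock, chromosome 10, 55687050 to 55695994, plus strand). Cdkn1a (ENSRNOG00000000521, the cyclin-dependent kinase inhibitor p21, chromosome 20, 6351458 to 6358864, plus strand) halts the cell cycle. These positions are those of the deposited tables, whose genome build is not given in the sources used here. No other listed feature overlapped an exon of any of the 6 genes.

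Promoter windows of 250 bases before to 50 bases after an annotated start were taken from RefSeq (GRCr8) for 5 of the 6 genes, 8 windows in all. Nr3c2 had no window in the table. The Cdkn1a window is shown because this gene gave the clearest fentanyl difference below, and 1 Sgk1 window because its level followed the rat across both regions. Capitals in the Cdkn1a window (chr20:7150682-7150981, plus strand, GRCr8) mark a match to the p53 half-site consensus, GAACATGTCT, which starts at position -201 from the start site. Capitals in the Sgk1 window (chr1:24804782-24805081, minus strand, GRCr8) mark a TATAAA at position -33.

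Cdkn1a: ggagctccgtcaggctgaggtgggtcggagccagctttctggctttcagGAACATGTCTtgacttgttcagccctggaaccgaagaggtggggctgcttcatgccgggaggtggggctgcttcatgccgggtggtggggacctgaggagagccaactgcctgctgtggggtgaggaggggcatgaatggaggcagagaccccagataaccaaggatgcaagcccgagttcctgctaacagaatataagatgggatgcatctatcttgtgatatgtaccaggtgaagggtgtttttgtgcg
Sgk1: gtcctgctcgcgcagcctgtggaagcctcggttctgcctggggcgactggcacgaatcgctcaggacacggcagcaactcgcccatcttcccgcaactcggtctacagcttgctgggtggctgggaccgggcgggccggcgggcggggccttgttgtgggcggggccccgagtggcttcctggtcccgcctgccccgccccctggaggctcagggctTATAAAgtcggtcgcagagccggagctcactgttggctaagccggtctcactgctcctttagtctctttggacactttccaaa

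On either strand, the whole glucocorticoid response element, AGAACA and TGTTCT spaced by 3 bases of any kind, was in none of the 8 windows and in 0.0149% of all 33469 windows of this length. TGTTCT alone, which the whole element contains, was in none of the 8 against 20.7% of all windows, and the E-box CACGTG in none against 6.42%. The p53 half-site consensus was in 1 of the 8, the Cdkn1a window, against 7.98% of all. TATAAA was in 2 of the 8, both of Sgk1, against 14.2% of all. These matches describe letters in a short window near 1 annotated start and say nothing of elements elsewhere.

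Library totals were 3.46 M to 5.01 M counts in the NAc and 4.49 M to 6.30 M in the VTA, and Y-linked counts gave the labelled sex in each of the 24. Mitochondrial features took 29.2% to 36.7% of counts in NAc fentanyl females against 22.1% to 26.1% in NAc saline females, groups that did not overlap, and 26.9% to 28.5% against 24.9% to 31.3% in NAc males. In the VTA the share was 21.3% to 26.9% in fentanyl rats and 17.6% to 21.0% in saline rats. Their part in the results below was not tested, beyond fits with these features left out. Levels are given as CPM (counts scaled by TMM to a common library total), and tests are edgeR quasi-likelihood F tests with Benjamini-Hochberg adjustment over all genes tested in a comparison, called at an adjusted p under 0.05. In punches of whole tissue, a change in the RNA per cell cannot be told apart from a change in the number of cells that express the gene.

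Per kilobase of exon, Sgk1 was the most abundant of the 6 in the NAc, at 91.5 ± 46.0 CPM per kb (mean ± SD, n = 14), above 96.7% of the 14557 genes ranked. Nr3c1 followed at 34.3 ± 4.83 CPM per kb and Per1 at 33.4 ± 5.09, and these neighbours did not differ beyond their spread. Nr3c2 stood at 17.98 ± 3.31 CPM per kb. Fkbp5 at 6.74 ± 1.87 and Cdkn1a at 4.86 ± 3.57 CPM per kb were lowest and overlapped each other. In the VTA (n = 10) Sgk1 again led with 106 ± 70.1 CPM per kb, followed by Nr3c1 with 21.1 ± 1.67, Per1 with 14.4 ± 1.81, Nr3c2 with 12.1 ± 3.30, Cdkn1a with 10.8 ± 7.32 and Fkbp5 with 3.999 ± 2.19. There, Per1, Nr3c2 and Cdkn1a were within their spread of one another, and the Cdkn1a and Fkbp5 libraries overlapped. The ranges of raw counts per library were 686 to 6690 for Sgk1, 466 to 875 for Nr3c1, 241 to 766 for Per1, 101 to 305 for Nr3c2, 28 to 137 for Fkbp5 and 9 to 252 for Cdkn1a, so the last 2 carried the largest counting error.

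**Figure D1:**
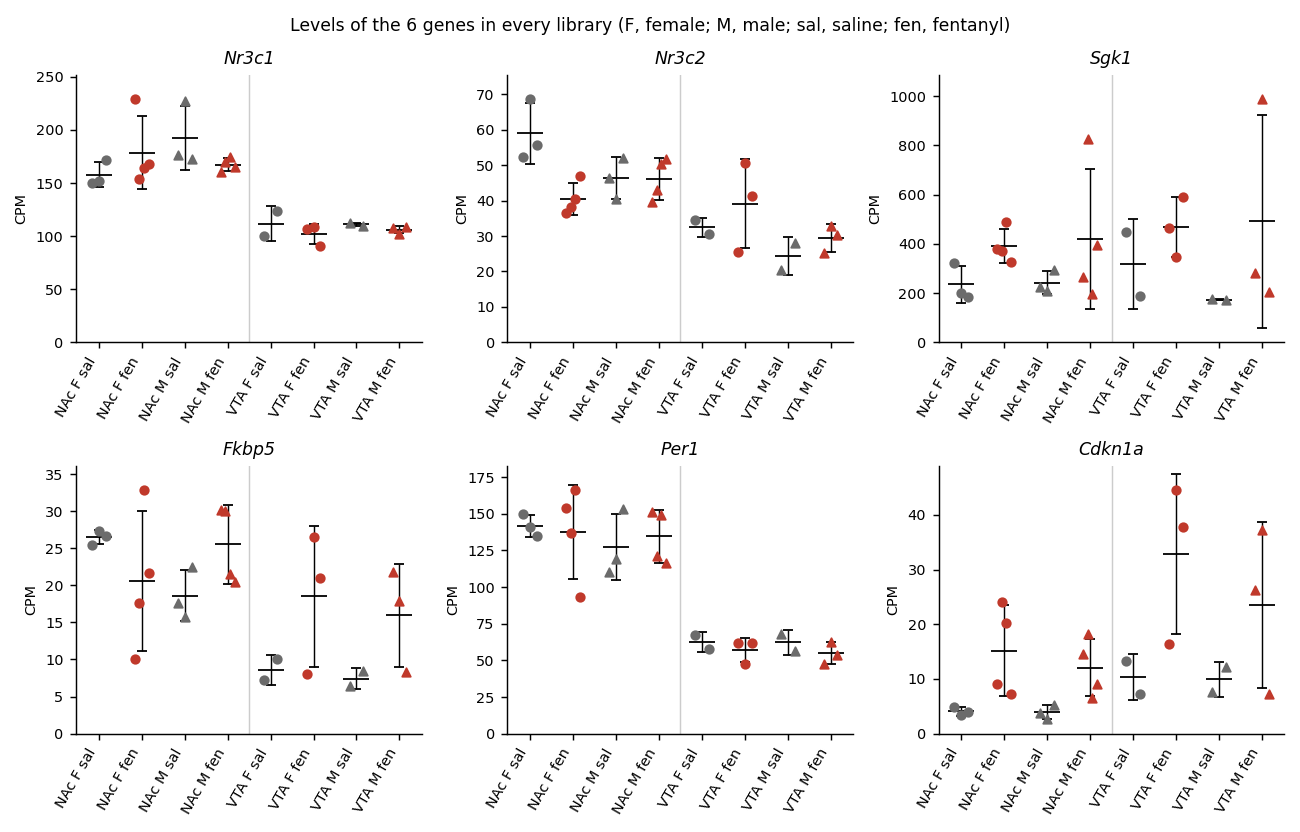
CPM of each of the 6 genes in every library, with circles for females, triangles for males, grey for saline and red for fentanyl; the long tick is the group mean and the bars are 1 SD (n = 2 to 4). All NAc fentanyl points of Cdkn1a lie above all NAc saline points, and all VTA points of Nr3c1 and Per1 lie below all NAc points.

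The first comparison set NAc libraries of fentanyl rats against those of saline rats. Cdkn1a rose in fentanyl females and in the fit over both sexes, and Nr3c2 fell in fentanyl females. The other 4 genes did not pass the test in either sex, and no gene of the 6 passed it in males. In females 2 of the 6 genes were called against 13.5% of the 13248 genes tested, in males 0 of 6 against 0.0%, and over both sexes 1 of 6 against 7.51%. The median log2 fold change of the 6 was 0.07 in females, 0.27 in males and 0.04 over both sexes, beside -0.00012, 0.0033 and 0.0034 over all genes tested.

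Among the receptors, Nr3c2 in the NAc stood at 36.5, 38.1, 40.4 and 46.9 CPM in fentanyl females (replicates 1, 2, 7 and 8) and at 52.4, 68.7 and 55.7 CPM in saline females (replicates 1, 2 and 4). Every fentanyl female lay below every saline female, a pattern held by 12.6% of genes tested. The mean was 40.5 ± 4.54 CPM (SD, n = 4) against 59.0 ± 8.61 (n = 3), which gave -0.53 ± 0.13 (SE) as log2 fold change and 0.0107 as edgeR adjusted p. With mitochondrial features left out, the change was -0.53 with an edgeR adjusted p of 0.0105. Without saline replicate 2, the highest library, the change was -0.40 and the call ended, with an edgeR adjusted p of 0.0900. In males the Nr3c2 levels were 39.5, 42.9, 50.3 and 51.7 CPM in fentanyl rats (replicates 1, 2, 3 and 7) and 46.4, 40.5 and 52.2 CPM in saline rats (replicates 1, 3 and 4). The male groups overlapped almost fully, with a log2 fold change of 0.00 ± 0.14 and a 95% interval of -0.29 to 0.28. Over both sexes the change was -0.27 ± 0.10, with an edgeR adjusted p of 0.0859.

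Nr3c1 did not pass the test in the NAc. It stood at 229, 154, 164 and 168 CPM in NAc fentanyl females and at 150, 152 and 172 CPM in saline females. In males it stood at 161, 170, 175 and 165 CPM with fentanyl and at 177, 228 and 173 CPM with saline. Fentanyl female replicate 1 and saline male replicate 3 lay well above the rest, and the groups overlapped in both sexes. Its log2 fold change was 0.18 ± 0.12 (95% interval -0.07 to 0.43) in females and -0.19 ± 0.12 (-0.44 to 0.06) in males. The ratio of Nr3c1 to Nr3c2, each per kilobase of exon, was 1.86 to 3.25 in NAc fentanyl females and 1.15 to 1.60 in NAc saline females, ranges that did not overlap. It was 1.65 to 2.11 in NAc fentanyl males and 1.72 to 2.91 in NAc saline males, ranges that did. The ratio holds the same Nr3c2 levels as above, so its gap in NAc females is not a separate result. In the VTA the fentanyl and saline ranges of the ratio overlapped in both sexes, and the medians were lower with fentanyl. They were 1.139 in fentanyl females against 1.803 in saline females, and 1.852 in fentanyl males against 2.435 in saline males. No test was made of the ratio, and the share of gene pairs with such a gap was not counted.

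Cdkn1a gave the largest fold change of the 6. It stood at 9.04, 24.1, 20.2 and 7.21 CPM in NAc fentanyl females and at 4.89, 3.38 and 3.92 CPM in NAc saline females. In males it stood at 14.5, 18.2, 6.55 and 9.05 CPM with fentanyl and at 3.70, 2.72 and 5.29 CPM with saline. All 8 fentanyl libraries thus lay above all 6 saline libraries, and the fentanyl libraries spread much more widely than the saline ones.

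Over both sexes, 61 of the 13248 genes tested, or 0.46%, had every NAc fentanyl library above every saline library. Within a sex the share was 12.3% in females and 4.07% in males. The Cdkn1a mean was 15.1 ± 8.29 CPM (n = 4) against 4.07 ± 0.766 (n = 3) in females and 12.1 ± 5.25 against 3.90 ± 1.30 in males. Its log2 fold change over both sexes was 1.76 ± 0.33 (SE, 95% interval 1.06 to 2.46), with an edgeR adjusted p of 0.00740. This fold change was higher than that of 99.9% of genes tested. The call held in all 19 other settings, with adjusted p up to 0.0255, and at 0.00740 with mitochondrial features left out. The lowest, 6.49e-14, came from the edgeR fit with no low-count filter, where the SE was 0.20. DESeq2 gave an adjusted p of 1.05e-05.

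In NAc females alone the Cdkn1a log2 fold change was 1.92 ± 0.45, with an edgeR adjusted p of 0.0110. That call ended without saline replicate 2 (adjusted p of 0.0538) or without saline replicate 4 (0.0515), while the log2 fold change stayed at 1.81 and 1.89. In males it was 1.61 ± 0.48 with an unadjusted p of 0.00448 and an edgeR adjusted p of 0.571. It was the 1 of the 6 genes with an unadjusted p under 0.05 in males, against 6.42% of genes tested, and DESeq2 also called none of the 6 in males (0.0161% of the genes it tested). With no low-count filter the male change was 1.61 and passed, with an adjusted p of 2.70e-04, where 0.185% of genes did. The female minus male difference of the Cdkn1a change was 0.31 ± 0.68 (95% interval -1.13 to 1.75).

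Sgk1 in the NAc stood at 378, 371, 490 and 328 CPM in fentanyl females and at 321, 201 and 185 CPM in saline females. In males it stood at 266, 827, 196 and 394 CPM with fentanyl and at 226, 207 and 295 CPM with saline. The female groups did not overlap by a narrow margin, whereas the male fentanyl rats ran from below the lowest saline rat to replicate 2 far above all others. The log2 fold change was 0.74 ± 0.44 in females and 0.80 ± 0.44 in males, with edgeR adjusted p of 0.294 and 0.823. Over both sexes it was 0.77 ± 0.31 with an edgeR adjusted p of 0.161. Without fentanyl male replicate 2 it was 0.24 in males and 0.49 over both sexes. When the fit held no male library, the female change passed at an edgeR adjusted p of 0.0386.

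Fkbp5, a common readout of glucocorticoid exposure in brain, did not pass in the NAc and differed in sign between the sexes. It stood at 10.1, 17.7, 32.8 and 21.6 CPM in fentanyl females and at 25.4, 27.3 and 26.7 CPM in saline females. In males it stood at 30.1, 30.04, 21.5 and 20.4 CPM with fentanyl and at 17.6, 15.7 and 22.4 CPM with saline. The saline females lay close together within the wide range of the fentanyl females, and the male groups overlapped. The log2 fold change was -0.34 ± 0.25 in females and 0.45 ± 0.26 in males, with edgeR adjusted p of 0.394 and 0.823. Without fentanyl female replicate 7 the female change was -0.64 and passed, with an edgeR adjusted p of 0.0495, and without fentanyl female replicate 1 it was -0.14 (0.703).

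Per1 gave the smallest NAc values of fentanyl over saline among the targets. Its range was 93.2 to 166 CPM in fentanyl females, 135 to 150 CPM in saline females, 116 to 151 CPM in fentanyl males and 110 to 153 CPM in saline males. The saline ranges lay inside the fentanyl range in females, and the male ranges nearly coincided. The log2 fold change was -0.04 ± 0.16 (95% interval -0.37 to 0.30) in females and 0.08 ± 0.16 (-0.26 to 0.42) in males.

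**Figure D2:**
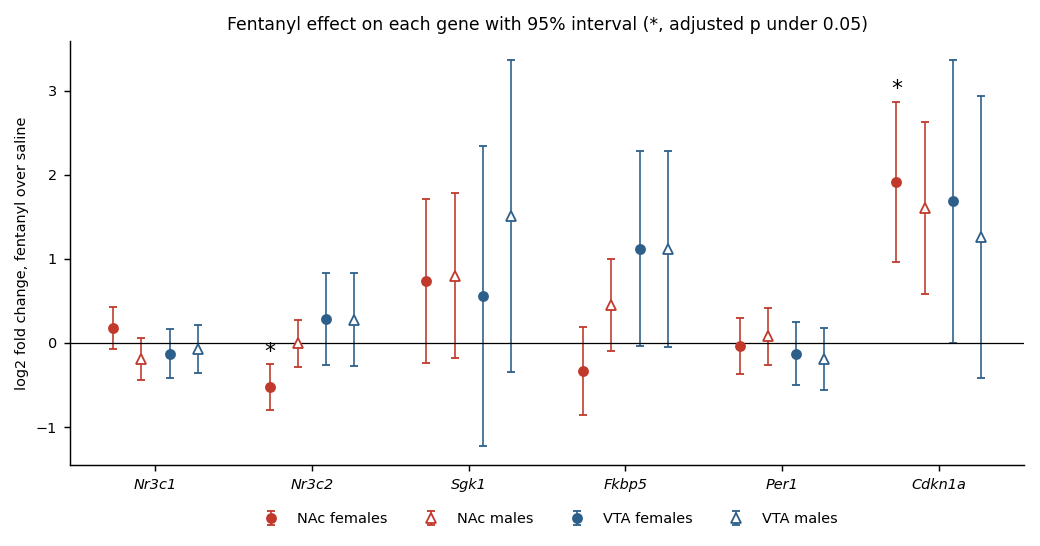
Log2 fold change of fentanyl over saline for each gene (y axis) in NAc females, NAc males, VTA females and VTA males, with 95% intervals from the edgeR fits; an asterisk marks an adjusted p under 0.05. The asterisks stand on Nr3c2 and Cdkn1a in NAc females, and the VTA intervals are wider than the NAc intervals.

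The female effect minus the male effect was then tested in the NAc, since the study asked about sex. None of the 6 genes passed, against 0.77% of the genes tested. At an unadjusted p under 0.05 there were 3 of 6, against 14.1% of the genes tested. These were Nr3c2 with a difference of -0.52 ± 0.19 on the log2 scale (edgeR adjusted p of 0.192), Fkbp5 with -0.79 ± 0.36 (0.333) and Nr3c1 with 0.37 ± 0.17 (0.323). The difference was -0.06 ± 0.61 for Sgk1 and -0.12 ± 0.23 for Per1. DESeq2 likewise called none of the 6 (1.0% of the genes it tested). The calls of Nr3c2 and Cdkn1a in females are therefore not shown to differ from the male effects.

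Among NAc saline rats alone, none of the 6 genes passed between females and males, against 0.377% of the genes tested. At an unadjusted p under 0.05 there were 2 of 6, against 11.5%. Nr3c2 was 59.0 ± 8.61 CPM in saline females and 46.4 ± 5.83 in saline males, a log2 difference of 0.34 ± 0.14 (edgeR adjusted p of 0.353). Nr3c1 was 158 ± 11.8 and 192 ± 30.5 CPM, a difference of -0.28 ± 0.13 (0.400). Fkbp5 was 26.5 ± 0.932 and 18.6 ± 3.45 CPM, a difference of 0.50 ± 0.27. The female and male ranges of these 3 genes did not overlap, which held for 20.5% of the genes tested, and the gap was narrow for both receptors (52.4 against 52.2 CPM for Nr3c2). The difference was -0.04 ± 0.47 for Sgk1, 0.15 ± 0.17 for Per1 and 0.04 ± 0.56 for Cdkn1a. DESeq2 called none of the 6 here (0.458% of the genes it tested). The saline females, against which the female fentanyl effect is taken, were thus the highest NAc group in mean Nr3c2.

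In the VTA none of the 6 genes passed between fentanyl and saline rats in females, in males or over both sexes, and 0.0% of the 14400 genes tested passed in each. At an unadjusted p under 0.05 there was 1 of 6 in females against 7.62% of genes tested, 0 of 6 in males against 4.5%, and 2 of 6 over both sexes against 8.83%. DESeq2 called none of the 6 either, against 0.126% of the genes it tested in females, 0.0158% in males and 0.15% over both sexes. It put 2 of 6 at an unadjusted p under 0.05 in each of the 3 comparisons, against 3.98%, 2.1% and 4.78% of genes. The DESeq2 shares are over 25326 genes, without the low-count filter that left 14400, and so cannot be set directly beside the edgeR shares. The median log2 fold change of the 6 was 0.42 in females, 0.69 in males and 0.66 over both sexes, beside 0.0077, 0.0051 and 0.0049 over all genes tested.

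VTA Cdkn1a stood at 16.5, 44.5 and 37.7 CPM in fentanyl females (replicates 1, 2 and 7), at 13.3 and 7.33 CPM in saline females (replicates 1 and 2), at 26.2, 37.3 and 7.26 CPM in fentanyl males (replicates 1, 2 and 3) and at 7.66 and 12.2 CPM in saline males (replicates 1 and 3). All fentanyl rats other than male replicate 3 lay above all saline rats, and the share of all genes with such an order was not counted. Fentanyl over saline gave a log2 fold change of 1.68 ± 0.72 in females, 1.26 ± 0.72 in males and 1.47 ± 0.51 over both sexes, the last with an unadjusted p of 0.0214 and an edgeR adjusted p of 0.486. Without fentanyl male replicate 2 the male change was 0.77.

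VTA Fkbp5 stood at 8.01, 26.5 and 21.0 CPM in fentanyl females, 7.19 and 10.1 CPM in saline females, 21.7, 17.9 and 8.25 CPM in fentanyl males and 6.41 and 8.44 CPM in saline males. Fentanyl female replicate 1 and fentanyl male replicate 3 lay among the saline rats, and the other 4 fentanyl rats lay above all of them. How many of all genes had such an order was not counted. Its log2 fold change was 1.12 ± 0.37 over both sexes, with an unadjusted p of 0.0126 and an edgeR adjusted p of 0.456. It was 1.12 ± 0.52 in females and 1.11 ± 0.52 in males.

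VTA Sgk1 stood at 465, 347 and 590 CPM in fentanyl females, 449 and 189 CPM in saline females, 284, 989 and 203 CPM in fentanyl males and 175 and 171 CPM in saline males. The female groups overlapped. The 3 fentanyl males all lay above the 2 saline males, and the share of all genes with such a gap was not counted. The log2 fold change was 0.56 ± 0.74 in females, 1.51 ± 0.77 in males and 1.03 ± 0.53 over both sexes, the last with an edgeR adjusted p of 0.601. These values moved with single rats. Without fentanyl male 2 the change was 0.49 in males and 0.52 over both sexes. In females it was 0.058 without saline female 2, 1.32 without saline female 1 and 0.35 without fentanyl female 7. Fits with no low-count filter called Fkbp5 and Cdkn1a in each of these 3 VTA comparisons and Sgk1 in males and over both sexes, against 1.65% of genes in females, 0.45% in males and 1.97% over both. The fold changes were nearly those of the filtered fits, in which the adjusted p of these genes was 0.456 to 0.956 with 2 or 3 rats per group, and the cause was not tested.

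The remaining 3 genes differed less in the VTA, where Nr3c1 gave -0.13 ± 0.13 in females and -0.07 ± 0.13 in males and Per1 -0.13 ± 0.17 and -0.19 ± 0.17. Nr3c2 gave 0.28 ± 0.25 in each sex. Over both sexes the log2 fold change was -0.10 ± 0.09 for Nr3c1 (95% interval -0.30 to 0.10), 0.28 ± 0.18 for Nr3c2 (-0.11 to 0.67) and -0.16 ± 0.12 for Per1 (-0.42 to 0.10). Nr3c2 stood at 25.6, 50.6 and 41.3 CPM in fentanyl females against 34.4 and 30.5 CPM in saline females, and at 25.2, 32.8 and 30.4 CPM in fentanyl males against 20.5 and 28.1 CPM in saline males. Both pairs of groups overlapped. In neither sex was the mean VTA level of Nr3c2 lower with fentanyl. The Nr3c1 levels of VTA males did not overlap, at 102 to 109 CPM with fentanyl and 110 to 112 CPM with saline. For that gap, too, the share of all genes was not counted.

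The female effect minus the male effect in the VTA passed for none of the 6 genes (0.0% of genes tested) and reached an unadjusted p under 0.05 for none of 6 (3.31%). Its largest value was -0.95 ± 1.04 for Sgk1, which was 0.067 without fentanyl male 2. It was 0.42 ± 1.00 for Cdkn1a, 0.06 ± 0.24 for Per1, -0.06 ± 0.19 for Nr3c1, 0.01 ± 0.74 for Fkbp5 and 0.01 ± 0.36 for Nr3c2. DESeq2 called 0 of 6 (0.00395% of the genes it tested). Saline females and males of the VTA also gave no call among the 6, against 0.0556% of genes tested, and edgeR put 0 of 6 at an unadjusted p under 0.05 against 2.41%. The largest difference was again that of Sgk1, 0.88 ± 0.81, which was 0.12 without saline female 1. It was 0.42 ± 0.28 for Nr3c2, 0.21 ± 0.58 for Fkbp5, 0.06 ± 0.80 for Cdkn1a, 0.01 ± 0.15 for Nr3c1 and 0.01 ± 0.19 for Per1. DESeq2 called 0 of 6 here too (0.0355%).

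VTA and NAc levels were then set against each other in each of the 10 rats sampled in both. Punches were 2.16 mm in diameter in the NAc and 1.19 mm in the VTA, so region and punch size cannot be told apart. Nr3c1, Nr3c2, Fkbp5 and Per1 were lower and Cdkn1a was higher in the VTA, while Sgk1 did not pass. Thus 5 of the 6 genes were called against 63.0% of the 14795 genes tested, 1 of them higher (32.0% of genes) and 4 lower (31.0%), so a call in itself is near the background. All 5 calls held in each of the 15 other settings.

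Per1 showed the largest fall. Its NAc level was 93.2 to 166 CPM and its VTA level 47.2 to 68.1 CPM, with no overlap between the 14 NAc and the 10 VTA libraries. It was lower in the VTA in 10 of 10 rats, by 1.62-fold to 3.17-fold with a median of 2.47-fold, and its log2 difference was -1.24 ± 0.08 (edgeR adjusted p of 1.15e-10). Nr3c1 was likewise 150 to 229 CPM in the NAc and 90.9 to 124 CPM in the VTA, without overlap. It was lower in 10 of 10 rats, with a median NAc to VTA ratio of 1.59 and a log2 difference of -0.69 ± 0.07 (edgeR adjusted p of 8.05e-08). The share of all genes whose NAc and VTA libraries did not overlap was not counted, and 63.0% of genes were called between the regions.

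Cdkn1a was higher in the VTA in 10 of 10 rats, by 1.11-fold to 4.47-fold with a median of 1.96-fold. Its log2 difference was 1.02 ± 0.13, with an edgeR adjusted p of 1.27e-06. A common direction in all 10 rats, as for Per1, Nr3c1 and Cdkn1a, was found for 37.1% of the genes tested. Nr3c2 was lower in the VTA in 8 of 10 rats, with a log2 difference of -0.52 ± 0.13 (edgeR adjusted p of 0.00270), and the exceptions were fentanyl females 2 and 7. Fkbp5 was lower in 9 of 10, with -0.83 ± 0.19 (edgeR adjusted p of 0.00148), and the exception was fentanyl female 2.

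Sgk1 was higher in the VTA in 6 rats and lower in 4. Its ratio of VTA to NAc was 0.773 to 1.40 with a median of 1.05. The log2 difference of 0.08 ± 0.08 had a 95% interval of -0.09 to 0.25 and an edgeR adjusted p of 0.394.

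**Figure D3:**
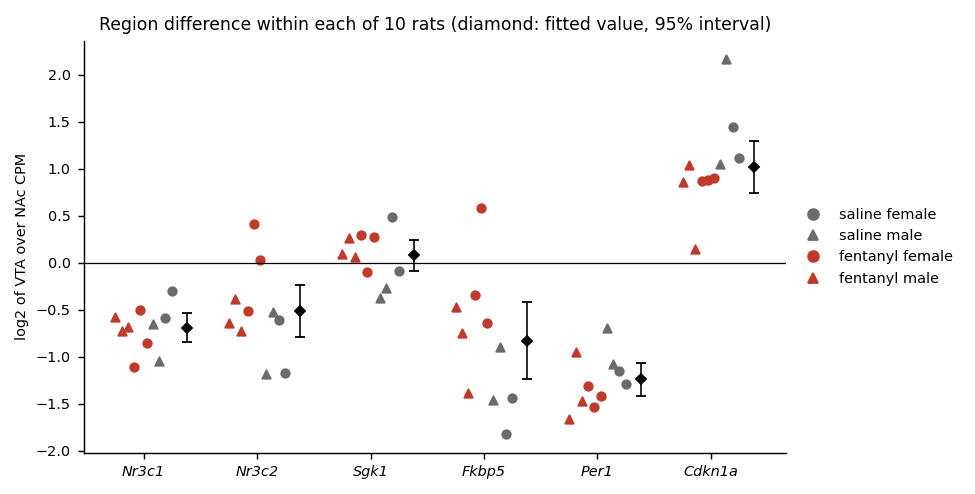
Log2 of the VTA over the NAc level (y axis) of each gene in each of the 10 rats, with circles for females, triangles for males, grey for saline and red for fentanyl; the black diamond and bar are the fitted difference and its 95% interval. Nr3c1 and Per1 lie below 0 and Cdkn1a above 0 in all 10 rats, and Sgk1 lies on both sides of 0.

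Taken within the same rats, the VTA fentanyl effect minus that of the NAc passed for none of the 6 genes (0.0% of genes tested). At an unadjusted p under 0.05 there were 4 of 6, against 5.68% of genes tested. DESeq2 put 2 of 6 there, against 1.84% of its 26749 genes, which were not filtered for low counts. The VTA effect minus the NAc effect on the log2 scale was 0.94 ± 0.28 for Fkbp5 (unadjusted p of 0.00332 in edgeR), 0.59 ± 0.20 for Nr3c2 (0.00987), -0.61 ± 0.28 for Cdkn1a (0.0434) and -0.33 ± 0.15 for Per1 (0.0471). Each edgeR adjusted p was between 0.781 and 0.857. It was 0.22 ± 0.14 for Sgk1 and -0.08 ± 0.14 for Nr3c1. The NAc levels of Fkbp5 and Nr3c2 were therefore not shown to answer to fentanyl differently from those in the VTA.

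The last question was whether a rat that was high for a gene in the NAc was also high for it in the VTA. For each gene, the log2 CPM of the 10 rats was taken as the deviation from the mean of the rat's sex and treatment group in that region, and significance came from exact two-sided permutation of rats within groups, adjusted over the 6 genes. Sgk1 followed the rat closely: Pearson r was 0.974 and Spearman rho 0.952, each with an exact permutation p of 0.00694, the smallest that the 144 regroupings allow, and an adjusted p of 0.0417 for r. Without the 2 rats farthest from the NAc median, fentanyl males 2 and 3, r was 0.953 with an exact p of 0.125. Leaving out any 1 of the 6 fentanyl rats or either saline female ended the call, while r stayed between 0.945 and 0.985. With 1 rat fewer, the smallest exact p that 1 gene alone can reach no longer passes after adjustment over the 6 genes. The lost calls therefore cannot show whether the relation rests on those rats.

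Within each sex and treatment group, the rats sampled in both regions had the same order of Sgk1 level in each. The levels below are set out across groups, so they also hold the group differences that the test removed. Fentanyl male 2 had 827 CPM in the NAc and 989 CPM in the VTA, the highest of all rats in both regions. Fentanyl female 7 was next in both, with 490 and 590 CPM, and saline female 1 was the highest saline rat in both, with 321 and 449 CPM. Saline males 1 and 3 had 226 and 207 CPM in the NAc and 175 and 171 CPM in the VTA, the lowest VTA values.

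Cdkn1a gave an r of 0.901 (exact p of 0.0347, adjusted 0.104) and a rho of 0.903 (exact p of 0.0139). Without fentanyl female 1 and fentanyl male 3, the rats farthest from the NAc median, r was 0.417 with an exact p of 0.62, so with both left out the relation did not hold. Leaving out 1 rat gave r of 0.816 to 0.976, and without either saline male r was 0.976 and passed, with an adjusted exact p of 0.0417. Fkbp5 gave an r of 0.706 (exact p of 0.208, adjusted 0.417) and a rho of 0.733 (exact p of 0.0972), with an r of 0.840 (exact p of 0.208) without fentanyl females 1 and 7. Its r was 0.282 without fentanyl female 1 alone and 0.929 without fentanyl female 7 alone. For Nr3c1, Nr3c2 and Per1, r was 0.147, 0.0149 and -0.0736, with exact p of 0.931, 0.958 and 0.868.

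**Figure D4:**
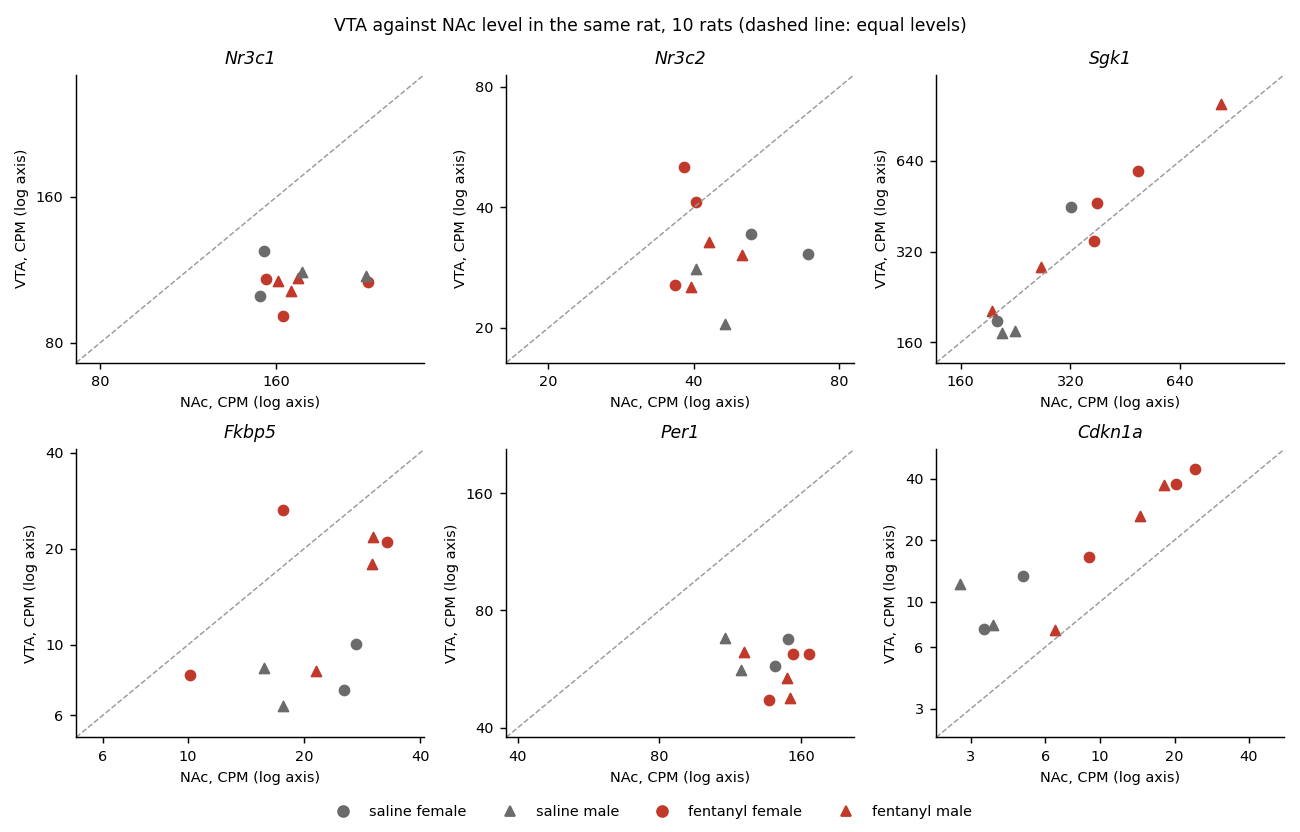
VTA level (y axis) against NAc level (x axis) of each gene in CPM on log axes, 1 point per rat for 10 rats, with circles for females, triangles for males, grey for saline and red for fentanyl; the dashed line marks equal levels. Sgk1 lies along the line from 203 CPM to 989 CPM in the VTA of fentanyl rats, whereas Nr3c1 and Per1 form clouds below it.

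Within a region, the 6 genes form 15 pairs, and none passed after adjustment over the 15 in the NAc (14 rats) or in the VTA (10 rats). In the NAc, Sgk1 and Cdkn1a had an r of 0.595 (exact permutation p of 0.0297, adjusted 0.445) and a rho of 0.547 (exact p of 0.0706), and r was 0.382 (exact p of 0.219) without fentanyl males 2 and 3. In the VTA the same pair had an r of 0.636 (exact p of 0.222) and a rho of 0.430 (exact p of 0.382), and r was 0.285 (exact p of 0.667) without the same rats. Fkbp5 and Cdkn1a had an r of 0.533 (exact p of 0.205) and a rho of 0.530 (exact p of 0.146) in the NAc, and r was 0.399 (exact p of 0.299) without fentanyl females 1 and 7. In the VTA they had an r of 0.801 (exact p of 0.0764) and a rho of 0.709 (exact p of 0.0972), which turned to an r of -0.23 (exact p of 0.750) without fentanyl female 1 and fentanyl male 3. Those 2 rats had the lowest Cdkn1a of the VTA fentanyl rats of their sex, 16.5 and 7.26 CPM, and the lowest Fkbp5, 8.01 and 8.25 CPM.

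Among pairs with the glucocorticoid receptor gene, the smallest exact p was that of Nr3c1 and Sgk1 in the VTA. There r was -0.657 (exact p of 0.0139, adjusted 0.208) and rho -0.721 (exact p of 0.0417), and r was -0.952 (exact p of 0.0833) without fentanyl female 7 and saline female 1. In the NAc the same pair had an r of -0.173 (exact p of 0.321) and a rho of -0.266 (exact p of 0.261), with an r of -0.221 (exact p of 0.503) without fentanyl female 1 and saline male 3. Nr3c1 and Cdkn1a in the NAc had an r of -0.535 (exact p of 0.104) and a rho of -0.560 (exact p of 0.0420), with an r of -0.453 (exact p of 0.155) without the same rats. Nr3c1 and Fkbp5 in the NAc had an r of -0.661 (exact p of 0.0992) and a rho of -0.499 (exact p of 0.132). Without fentanyl female 1 and saline male 3, the r of that pair was 0.0872 (exact p of 0.800). Sgk1 and Per1 in the VTA had an r of 0.690 (exact p of 0.0625) and a rho of 0.685 (exact p of 0.0347), with an r of 0.714 (exact p of 0.0417) without fentanyl males 2 and 3.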

How the data were processed

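Total RNA from NAc and VTA punches was depleted of ribosomal RNA and sequenced as paired ends, per the labels. Each library has 1 deposited table of counts for Ensembl genes, which the authors left unnormalized. Per the submitters' processing notes, the tools included STAR 2.5.2b, Trimmomatic 0.36, DESeq2, and featureCounts with Subread 1.5.2. Build, annotation and strand setting: not given in the sources used here.

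Counts were fitted with edgeR 4.0.16 in R 4.3.3 (TMM scaling, filterByExpr, robust quasi-likelihood fit), once per region with its 4 groups of sex and treatment. The fit was first run on simulated data for NAc females and for both sexes of each region, and not for the other comparisons. The region fit used the 20 libraries of the 10 rats with both and kept rat as a blocking factor. Adjusted p-values are over all genes tested, which were 13248 in the NAc, 14400 in the VTA and 14795 in the comparison of regions; all 6 members passed the filter in each. Standard errors come from the F statistic. Correlations used log2 CPM. DESeq2 1.42.0 was an alternative. DESeq2 and the fits with no low-count filter took every gene with a count, so their shares are over more genes than those of the main fits. The labels name separate rats, and no libraries of a group were copies: chi-square divided by degrees of freedom was 2.61 to 20.9 over 26 pairs.

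All 6 members are named in every comparison. Members and lists were chosen with earlier results of these data known. The tables and the reference tables used here pair 0 of the 32552 Ensembl IDs with a symbol, so symbols of the members are those assigned with their IDs. Lists of receptor partners, other glucocorticoid-induced genes, clock genes, p53 genes and cell type markers, and the genes most like each member, were not analysed here, and neither was a check of the tissue against markers.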

Additional observations from a re-analysis of the deposited data

Results flagged for a closer look

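Among 18 sets of 4 to 10 values that were examined for a value far from the rest, 2 held one. Chance alone gives about 1 in 20 for normally distributed values. Both flagged sets are plain ratios, not taken on a log scale, for which that rate was not checked. Of the ratios of VTA to NAc Fkbp5 in the 10 rats, the highest was 1.497 in fentanyl female 2, whose VTA level was 26.5 CPM and whose NAc level was 17.7 CPM; the other 9 rats lay between 0.283 and 0.791. Of the same ratios for Cdkn1a, the highest was 4.47 in saline male 3, whose VTA level was 12.2 CPM and whose NAc level was 2.72 CPM, from 9 counts; the next was 2.72 in saline female 1.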

How the results depend on the processing

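Over 86 results and 1206 values under other settings, 1091 kept direction and side of the threshold, 12 lost a call or moved down, 17 gained one and 86 changed direction; the cause was not tested. The replicate block changed no call among the 6 genes. Residuals of rats that share only a number correlated on average at -0.0105 (12 pairs, -0.11 to 0.15) in the NAc. In the VTA the average was 0.000614 (10 pairs, -0.29 to 0.19). Libraries of the same rat in the other region correlated at only 0.036 (10 pairs), so this check could hardly detect a pairing. With the block, counts of called genes were 341 in the NAc over both sexes, 236 for the NAc female minus male effect, 13 between NAc saline sexes and 1 in the VTA over both sexes, and log2 changes turned to 0.19 for Per1 in NAc females and, over both NAc sexes, to 0.074 for Nr3c1 and -0.048 for Fkbp5. The block also turned the female minus male effect to 0.30 for Sgk1 in the NAc and to 0.044 for Nr3c1, -0.033 for Nr3c2 and -0.015 for Per1 in the VTA, where main values were near 0. It turned the sex difference of saline rats to -0.29 for Cdkn1a in the NAc and to -0.022 for Nr3c1, -0.37 for Fkbp5, -0.037 for Per1 and -0.59 for Cdkn1a in the VTA. The VTA female minus male effect of Nr3c2 was -0.0026 with RLE scaling and -0.0046 with DESeq2, and that of Fkbp5 was -0.0023 with DESeq2.

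Counts of called genes with no low-count filter were 46 in NAc males, 388 for the NAc female minus male effect, 210 between NAc saline sexes, 418 in VTA females, 114 in VTA males, 499 in the VTA over both sexes, 109 for the VTA female minus male effect, 115 between VTA saline sexes and 148 for the fentanyl effect between regions; Fkbp5 then passed in the last at an edgeR adjusted p of 0.0328, and Sgk1 in both VTA sex comparisons at 0.0220 and 0.00118. DESeq2 gave 4 in NAc males, 250 for the NAc female minus male effect, 114 between NAc saline sexes, 32 in VTA females, 4 in VTA males, 38 in the VTA over both sexes, and 1 each for the VTA female minus male effect and the fentanyl effect between regions. With only the compared groups in the fit, counts were 1102 in NAc females, 2 in NAc males, 218 between NAc saline sexes, 5 in VTA females and 2 in VTA males. No such fit was run for comparisons that need all 4 groups.

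Leaving out 1 replicate at a time gave 755 to 2018 called genes in NAc females, 0 to 2 in NAc males, 315 to 1299 over both NAc sexes, 20 to 299 for the NAc female minus male effect, 10 to 57 between NAc saline sexes, 0 to 11 in VTA females, 0 to 2 over both VTA sexes, 0 to 5 for the VTA female minus male effect, 8 to 15 between VTA saline sexes, 0 to 1 for the fentanyl effect between regions, and 0 to 2 of 6 genes correlated between regions. The log2 change ran from -0.14 to 0.11 for Per1 in NAc females, -0.093 to 0.090 for Nr3c2 and -0.0079 to 0.23 for Per1 in NAc males, and over both NAc sexes from -0.075 to 0.060 for Nr3c1, -0.093 to 0.16 for Fkbp5 and -0.031 to 0.098 for Per1. The female minus male effect ran from -0.027 to 0.59 for Cdkn1a in the NAc and from -1.45 to 0.067 for Sgk1 in the VTA, where leaving out fentanyl male 2 turned it; it ran from -0.30 to 0.51 for Sgk1 and -0.27 to 0.030 for Per1 in the NAc, and in the VTA from -0.19 to 0.098 for Nr3c1, -0.24 to 0.22 for Nr3c2, -0.32 to 0.35 for Fkbp5, -0.075 to 0.19 for Per1 and -0.0037 to 0.92 for Cdkn1a. The sex difference of saline rats ran from -0.33 to 0.12 for Sgk1 and -0.15 to 0.34 for Cdkn1a in the NAc, and in the VTA from -0.15 to 0.14 for Nr3c1, -0.037 to 0.43 for Fkbp5, -0.12 to 0.14 for Per1 and -0.44 to 0.44 for Cdkn1a. VTA female changes ran from -0.27 to 0.026 for Nr3c1 and -0.24 to 0.00094 for Per1. Correlations between regions ran from -0.17 to 0.44 for Nr3c1, -0.27 to 0.17 for Nr3c2 -0.66 to 0.54 for Per1, and, with no change of sign, 0.28 to 0.93 for Fkbp5. Sgk1 lost its call in 9 of 13 alternatives, in which fewer regroupings exist, with r of 0.945 to 0.985 in all 13. Without the 2 farthest rats, 0 of 6 genes passed between regions, and r turned to -0.033 for Nr3c1 there and to -0.23 for Fkbp5 with Cdkn1a in the VTA. It also turned to 0.087 for Nr3c1 with Fkbp5 in the NAc, a pair not among the 86 results. Where a replicate of a 2-rat group was left out, 1 rat remained, assumed to vary like the others.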
